A study of Mus musculus with 36 samples.

Results

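The expression of 10 genes of the muscle lineage was examined in 3 kinds of cells sorted from mouse skeletal muscle: Pax7, Myf5, Myod1 and Myog of satellite cells and their progeny, Des, and Acta1, Ckm, Tnnt3, Myh4 and Ttn of the muscle fibre. The genes were taken by symbol from a count table of 52636 genes, and all 10 of 10 had a row and passed the filter on low counts. The cells came from diaphragm, pectoralis, forelimb and hindlimb muscles of S100β-GFP;NG2-dsRed mice, which carry a GFP transgene driven by the S100B promoter and a dsRed transgene driven by the promoter of Cspg4, the gene for NG2. All animals carried both transgenes, no group was treated, and per the labels the age range starts at P15 and ends between P21 and P46, while the methods of the study end it at P21. The end in the labels rises by a day from sample to sample until P46, and whether it is a true age is not known. FACS separated double labeled NG2DsRed+/S100GFP+ cells, which the study calls perisynaptic Schwann cells (PSCs), single labeled S100GFP+ cells, which it calls Schwann cells, and single labeled NG2DsRed+ cells. Each replicate was a single mouse per the methods of the study. The table holds 9 PSC, 8 S100GFP+ and 10 NG2DsRed+ libraries of the 36 in the labels. The methods of the study removed failed libraries and count fewer S100GFP+ libraries than the table holds, but the one that was dropped is not named in the sources used here, and all in the table were used.

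Satellite cells are the stem cells of skeletal muscle and lie between the fibre and its basement membrane, marked by the transcription factor Pax7. When they are activated, the myogenic factors Myf5 and Myod1 and then Myog drive them through the myoblast stage to fusion. The mature fibre is filled with sarcomeres, in which thin filaments of skeletal actin and troponin slide past thick filaments of myosin, with titin spanning from Z disc to M line, desmin linking the Z discs and muscle creatine kinase supplying ATP. Schwann cells are not known for any of these genes, while desmin is also the filament of pericytes and smooth muscle. In sorted cell populations, fewer cells of a type and less RNA per cell cannot be told apart.

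Each library held between 5221655 and 9592875 counts. A share of 3.64% to 40.0% of them lay on Lars2, Gm23935 and Gm15564, and values are given as CPM (counts per 1000000 counts) after TMM normalization. The Schwann cell factor Sox10 had 504 ± 103 CPM in PSCs (SD, n = 9), 20.1 ± 12.0 in S100GFP+ cells (n = 8) and 4.43 ± 2.43 in NG2DsRed+ cells (n = 10). The S100GFP+ libraries also held the leukocyte list (7 genes) at a summed 1159 to 11360 CPM and the fibroblast list (7 genes) at 18672 to 42725 CPM. Their Sox10 thus stood far under that of PSCs although the study calls them Schwann cells. Cspg4 had 686 ± 132 CPM in PSCs and 662 ± 137 in NG2DsRed+ cells against 70.7 ± 42.1 in S100GFP+ cells. Within the S100GFP+ group, libraries 14, 17 and 22 stood apart, with a summed endothelial list (7 genes) of 846, 2644 and 1405 CPM where the other 5 had 131 to 202 CPM, and results that rest on them are given with and without them. They also had counts on 25890, 29103 and 38568 genes, the most of all libraries, where the other 5 S100GFP+ libraries had counts on 19669 to 23292. PSC library 18 had counts on the fewest genes, 14616, where the other 8 PSC libraries had counts on 20203 to 22533.

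The stretch before the transcription start is shown for 5 genes that the results turn on, the genes that moved most alike (Acta1 and Ckm), those that were higher in PSCs (Myh4 and Ttn) and the gene that stood apart (Des). Each is the 250 bases before the RefSeq gene start in GRCm38.p6, 5′ to 3′ on the strand of the gene. Capitals mark the E-box CANNTG, the core that MyoD family factors bind, and matches to the MEF2 site and the CArG box, the sites of MEF2 and serum response factor, searched on both strands.
Des, chr1:75360042-75360291, plus strand: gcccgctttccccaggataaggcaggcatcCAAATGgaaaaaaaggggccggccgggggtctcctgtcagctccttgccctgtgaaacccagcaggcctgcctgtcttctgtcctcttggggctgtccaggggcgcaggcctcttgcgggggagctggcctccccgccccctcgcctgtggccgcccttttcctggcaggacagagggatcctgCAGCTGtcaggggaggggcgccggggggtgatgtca
Acta1, chr8:123894776-123895025, minus strand: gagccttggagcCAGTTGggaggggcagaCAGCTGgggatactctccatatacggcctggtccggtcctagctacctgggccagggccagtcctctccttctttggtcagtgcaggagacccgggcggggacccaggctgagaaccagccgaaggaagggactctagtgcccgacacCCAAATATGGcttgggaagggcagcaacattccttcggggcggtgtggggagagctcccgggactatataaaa
Ckm, chr7:19410844-19411093, plus strand: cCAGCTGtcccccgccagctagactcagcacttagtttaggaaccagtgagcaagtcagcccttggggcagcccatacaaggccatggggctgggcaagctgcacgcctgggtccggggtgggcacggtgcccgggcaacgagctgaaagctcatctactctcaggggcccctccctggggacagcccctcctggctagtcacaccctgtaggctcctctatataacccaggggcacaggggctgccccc
Myh4, chr11:67237562-67237811, plus strand: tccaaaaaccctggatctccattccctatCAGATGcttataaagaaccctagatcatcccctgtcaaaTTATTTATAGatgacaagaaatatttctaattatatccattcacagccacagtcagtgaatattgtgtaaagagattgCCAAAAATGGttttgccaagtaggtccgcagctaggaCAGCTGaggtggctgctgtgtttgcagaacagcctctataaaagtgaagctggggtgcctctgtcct
Ttn, chr2:76982548-76982797, minus strand: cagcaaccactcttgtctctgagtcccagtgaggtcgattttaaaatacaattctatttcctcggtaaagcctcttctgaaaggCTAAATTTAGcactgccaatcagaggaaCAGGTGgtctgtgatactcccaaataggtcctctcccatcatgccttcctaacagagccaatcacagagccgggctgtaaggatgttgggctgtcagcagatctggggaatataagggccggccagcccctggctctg

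A RefSeq promoter entry was found for 8 of the 10 genes. The E-box form CAGCTG, which is contained in CANNTG, stood in the windows of Des (first base at -36 from the start), Acta1 (-221), Ckm (-249) and Myh4 (-67), and in 4271 of the 32851 windows of the table (13.0%). Any CANNTG was found in 66.2% of all windows, and also in those of Ttn (CAGGTG at -138) and Myog (CACATG at -138 and CAGTTG at -12), but not in those of Pax7 and Myf5. A MEF2 match stood in Myh4 (-182) and Ttn (-166) against 2.92% of all windows, and a CArG box in Acta1 (-73) and Myh4 (-104) against 1.47%. These matches describe the letters of the windows, and binding was not measured. Myh4 was the only one of the 8 windows with a match to each of the 3 kinds of site.

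**Figure D1:**
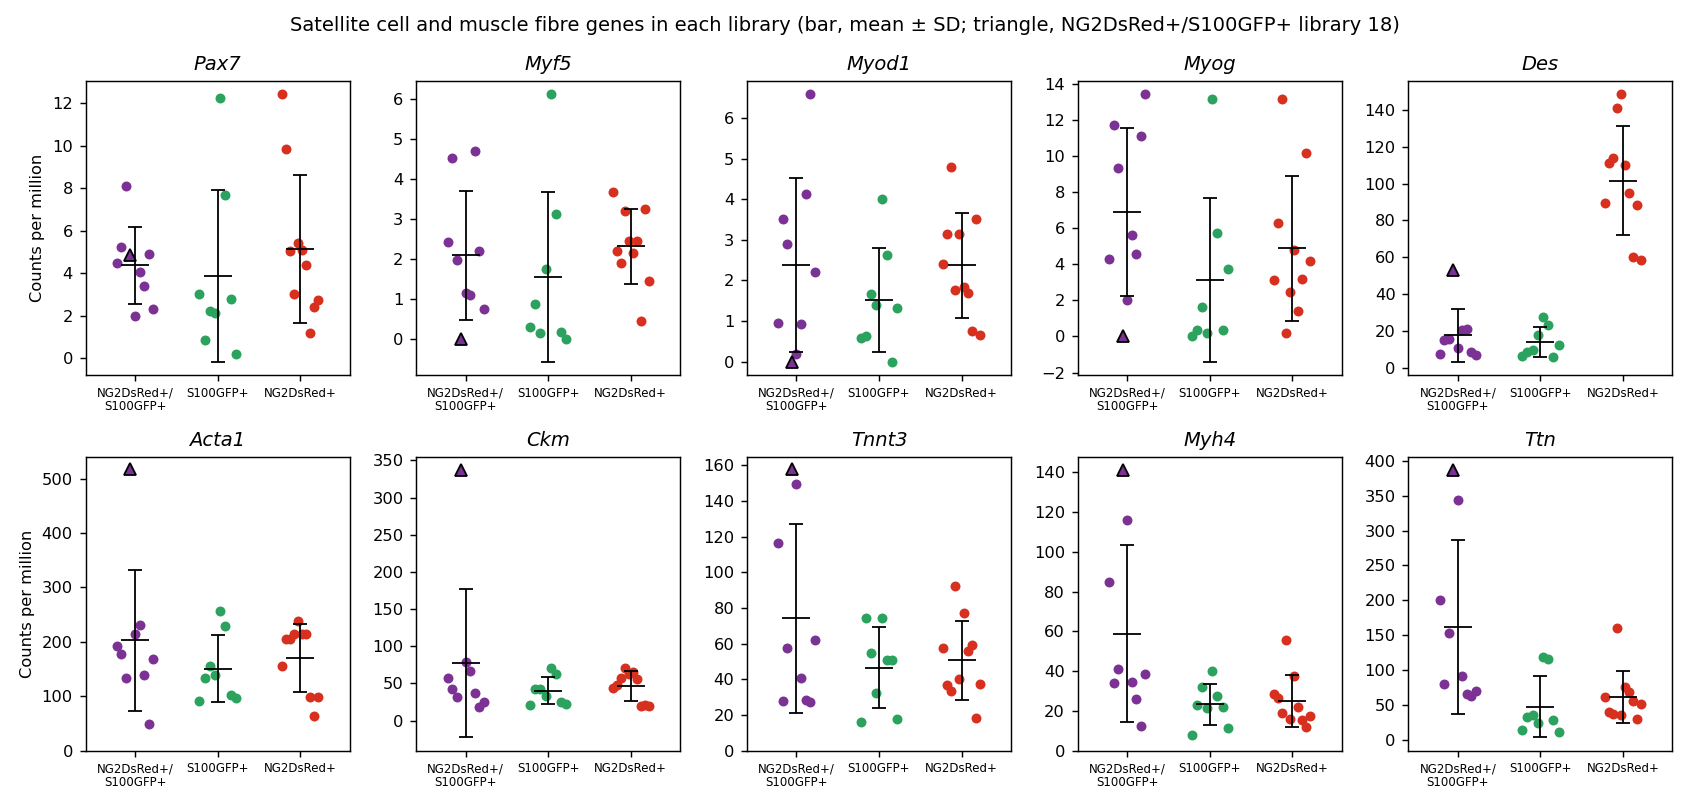
CPM of the 10 genes (vertical axes, linear, a scale for each gene) in every library of the 3 cell types, with the mean and SD as bars. The Des levels of the 10 NG2DsRed+ libraries lay between 58.7 and 148 CPM, above every other library, while the other 9 genes overlapped between cell types, and PSC library 18 (triangle) was the highest PSC library for Des and all 5 fibre genes.

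The satellite cell genes were present at a few CPM in each cell type. Pax7, the paired box factor of satellite cells, ranged from 2.00 to 8.10 CPM in PSCs (median 4.47), from 0.221 to 12.2 CPM in S100GFP+ cells (median 2.49) and from 1.21 to 12.4 CPM in NG2DsRed+ cells (median 4.72). The 3 ranges overlapped almost throughout, and every library had at least 1 Pax7 count. In log2 fold changes Pax7 differed by 0.18 (SE 0.49) between PSCs and S100GFP+ cells (edgeR quasi-likelihood test, adjusted p = 0.791), by -0.24 (SE 0.46) between PSCs and NG2DsRed+ cells (adjusted p = 0.709) and by -0.42 (SE 0.49) between S100GFP+ and NG2DsRed+ cells (adjusted p = 0.557).

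Myf5, the earliest of the myogenic factors, ranged from 0 to 4.70 CPM in PSCs (median 1.97), from 0 to 6.12 CPM in S100GFP+ cells (median 0.580) and from 0.454 to 3.67 CPM in NG2DsRed+ cells (median 2.32). Myod1, the factor that commits cells to the myoblast state, ranged from 0 to 6.58 CPM in PSCs (median 2.20), from 0 to 4.00 CPM in S100GFP+ cells (median 1.37) and from 0.644 to 4.80 CPM in NG2DsRed+ cells (median 2.12). Myog, which acts at the start of differentiation, ranged from 0 to 13.4 CPM in PSCs (median 5.61), from 0 to 13.2 CPM in S100GFP+ cells (median 1.01) and from 0.177 to 13.1 CPM in NG2DsRed+ cells (median 3.68). The highest library of each cell type therefore reached nearly the same level of Myog, and the groups differed in the middle of their ranges. PSC library 18 had 0 counts of Myf5, Myod1 and Myog, which allows up to 0.523 CPM of each by counting error at 3 counts, and it held Pax7 at 4.88 CPM. None of the 3 genes passed the test between any cell types, where 47.0%, 44.0% and 33.3% of all 15330 genes tested passed in the comparisons of PSCs with S100GFP+ cells, PSCs with NG2DsRed+ cells and S100GFP+ with NG2DsRed+ cells. They had log2 fold changes of 0.46 (Myf5), 0.66 (Myod1) and 1.17 (Myog) for PSCs minus S100GFP+ cells and adjusted p of 0.595, 0.415 and 0.218.

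These values depended on which S100GFP+ libraries were counted. Libraries 17 and 22 held 12.2 and 7.70 CPM of Pax7, 6.12 and 3.11 CPM of Myf5, and 13.2 and 5.73 CPM of Myog, the highest levels of the group, while in the other 6 libraries Pax7 stayed at or under 3.03 CPM, Myf5 at or under 1.76 CPM and Myog at or under 3.76 CPM. The same pair held the most erythroid RNA (6 genes, 130706 and 55018 CPM summed, against 24.7 to 24935 in the others) as well as the most endothelial RNA. The part of these other cells in the levels was not tested, nor was that of the higher number of genes with a count in these libraries. Without libraries 14, 17 and 22, Pax7 (log2 fold change 1.29, adjusted p = 0.0460), Myf5 (2.72, adjusted p = 0.00460) and Myog (2.63, adjusted p = 0.0182) were higher in PSCs than in S100GFP+ cells, and Myog also passed without library 17 alone (2.03, adjusted p = 0.0362). In the fit without the 3 libraries 42.4% of all genes tested passed the threshold.

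Desmin, the intermediate filament of muscle, followed a different pattern from the rest. Des ranged from 58.7 to 148 CPM in NG2DsRed+ cells (median 102), from 7.12 to 53.2 CPM in PSCs (median 15.2) and from 5.90 to 27.8 CPM in S100GFP+ cells (median 11.3). All 10 NG2DsRed+ libraries were above all 17 others. Across all genes tested, ranges did not overlap for 13.9% of genes between PSCs and NG2DsRed+ cells and for 11.6% between S100GFP+ and NG2DsRed+ cells. Des was 5.75-fold lower in PSCs than in NG2DsRed+ cells (log2 fold change -2.52, SE 0.35, adjusted p = 6.09e-07) and 7.25-fold lower in S100GFP+ cells (log2 fold change -2.86, SE 0.37, adjusted p = 3.58e-07). Between PSCs and S100GFP+ cells it differed by 0.34 (SE 0.35, adjusted p = 0.454), a value that changed with the libraries counted. It was -0.03 without PSC library 18, in which Des stood at 53.2 CPM against at most 20.9 CPM in the other PSC libraries, and 1.04 (adjusted p = 0.0220) without S100GFP+ libraries 14, 17 and 22, where Des was called higher in PSCs.

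The pericyte and smooth muscle list moved with Des. Its 15 genes summed to 8786 to 17259 CPM in NG2DsRed+ cells, 928 to 1953 CPM in PSCs and 306 to 1847 CPM in S100GFP+ cells, and 13 of the 15 were lower in PSCs than in NG2DsRed+ cells, where 23.1% of all genes tested were lower. The list holds Cspg4, whose promoter drives the dsRed of the sort, at 686 ± 132 CPM in PSCs and 70.7 ± 42.1 in S100GFP+ cells. The PSC and S100GFP+ sums are therefore not read against each other. Acta2, smooth muscle actin, had 2223 ± 706 CPM in NG2DsRed+ cells (n = 10) and 191 ± 113 in PSCs (n = 9), and Rgs5, a pericyte marker, had 5297 ± 1538 and 83.0 ± 33.3. The pattern was not particular to this list. The endothelial list summed to 1531 to 3534 CPM in NG2DsRed+ cells, 123 to 615 in PSCs and 131 to 2644 in S100GFP+ cells. All 7 of its genes were lower in PSCs than in NG2DsRed+ cells. Over the 27 libraries the genes most like Des by Spearman's rho of log2 CPM were Rgs4 (0.96), Tesc (0.95), Oaz2 (0.95), Ptp4a3 (0.95) and Sparcl1 (0.94), a description of points that share a library total and a cell type. Des was less like the fibre genes, with rho of 0.42 to Acta1, 0.39 to Ckm, 0.05 to Tnnt3, -0.04 to Myh4 and 0.11 to Ttn.

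The fibre genes were detected in every library of every cell type. Acta1, the actin of skeletal thin filaments, ranged from 49.6 to 517 CPM in PSCs (median 177), from 91.4 to 258 CPM in S100GFP+ cells (median 137) and from 63.9 to 239 CPM in NG2DsRed+ cells (median 205). Its log2 fold changes of 0.43 (SE 0.32, adjusted p = 0.287) for PSCs minus S100GFP+ cells, 0.25 (SE 0.30, adjusted p = 0.539) for PSCs minus NG2DsRed+ cells and -0.18 (SE 0.31, adjusted p = 0.707) for S100GFP+ minus NG2DsRed+ cells did not pass the test. The NG2DsRed+ median was above the PSC median while its mean, 171 ± 62.1 CPM, was under the PSC mean of 203 ± 129 CPM, which included 517 CPM in library 18.

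Tnnt3, the fast troponin T, ranged from 27.2 to 158 CPM in PSCs (median 57.4), from 16.0 to 74.5 CPM in S100GFP+ cells (median 50.9) and from 18.2 to 92.3 CPM in NG2DsRed+ cells (median 48.1). PSC libraries 4, 18 and 20 had 116, 158 and 149 CPM, above all libraries of the other cell types, and the other 6 lay within their ranges. Ckm, muscle creatine kinase, ranged from 17.7 to 337 CPM in PSCs (median 42.4), from 21.7 to 70.6 CPM in S100GFP+ cells (median 37.6) and from 19.2 to 70.7 CPM in NG2DsRed+ cells (median 51.7). Neither gene passed the test, with log2 fold changes for PSCs minus S100GFP+ cells of 0.67 (SE 0.38, adjusted p = 0.153) for Tnnt3 and 0.94 (SE 0.45, adjusted p = 0.0853) for Ckm. The Ckm value changed with the libraries counted. Without PSC library 18 it was 0.20 against S100GFP+ cells and 0.02 against NG2DsRed+ cells, while against S100GFP+ cells it passed without S100GFP+ libraries 14, 17 and 22 (1.32, adjusted p = 0.0431) and without PSC library 34 (1.07, adjusted p = 0.0409). Against S100GFP+ cells Ckm also passed in edgeR with no filter on low counts (0.96, adjusted p = 0.0465). With the share of Lars2, Gm23935 and Gm15564 as a term it was 1.28 (adjusted p = 0.0220).

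Myh4 and Ttn were higher in PSCs than in either single labeled population. Myh4, the fast IIb myosin heavy chain, ranged from 12.5 to 141 CPM in PSCs (median 38.5), from 8.09 to 40.0 CPM in S100GFP+ cells (median 22.5) and from 11.8 to 55.6 CPM in NG2DsRed+ cells (median 20.6). The ranges overlapped, but 8 of 9 PSC libraries were above the median of each of the other cell types. Myh4 was 2.53-fold higher in PSCs than in S100GFP+ cells (log2 fold change 1.34, SE 0.40, adjusted p = 0.00625) and 2.36-fold higher than in NG2DsRed+ cells (1.24, SE 0.37, adjusted p = 0.00672).

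Ttn, the titin gene, ranged from 63.2 to 387 CPM in PSCs (median 91.5), from 10.4 to 119 CPM in S100GFP+ cells (median 30.7) and from 29.7 to 160 CPM in NG2DsRed+ cells (median 53.6). All 9 PSC libraries lay above the median of each of the other cell types, and 4 lay above every S100GFP+ library. Ttn was 3.41-fold higher in PSCs than in S100GFP+ cells (log2 fold change 1.77, SE 0.48, adjusted p = 0.00336) and 2.63-fold higher than in NG2DsRed+ cells (1.40, SE 0.44, adjusted p = 0.0112). Neither Myh4 (-0.10, SE 0.38, adjusted p = 0.874) nor Ttn (-0.37, SE 0.46, adjusted p = 0.582) passed the test between S100GFP+ and NG2DsRed+ cells, though without S100GFP+ libraries 14, 17 and 22 Ttn was lower in S100GFP+ cells (-1.37, adjusted p = 0.0254). Without PSC library 18, and without every other library in turn, Myh4 and Ttn still passed in both PSC comparisons. PSC libraries 4, 18 and 20 had the highest levels, with 84.9, 141 and 116 CPM of Myh4 and 200, 387 and 344 CPM of Ttn. The other PSC libraries had 12.5 to 41.0 CPM of Myh4 and 63.2 to 153 CPM of Ttn, within the NG2DsRed+ ranges. No fit left these highest libraries out together, so dependence on them as a set was not tested.

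Of the 10 genes, 2 were thus called higher and 0 lower in PSCs than in S100GFP+ cells, where 22.9% of all genes tested were higher and 24.1% lower, and at an unadjusted p under 0.05 edgeR had 3 of the 10. Between PSCs and NG2DsRed+ cells 2 were higher and 1 was lower, against 20.9% and 23.1% of all genes. Between S100GFP+ and NG2DsRed+ cells 1 was lower and 0 were higher, against 15.2% and 18.1%, and 1 of the 10 had an unadjusted p under 0.05. The share of the 10 genes called was under that of all genes in each comparison, a description with no test. Without S100GFP+ libraries 14, 17 and 22 the counts were 7, 3 and 4, against 42.4%, 43.9% and 34.1% of all genes, and the median log2 fold change of all genes in PSCs against S100GFP+ cells became 0.16. The median log2 fold change of the 10 genes was 0.67, 0.37 and -0.40 in the 3 comparisons, beside 0.04, 0.02 and -0.02 over all genes.

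**Figure D2:**
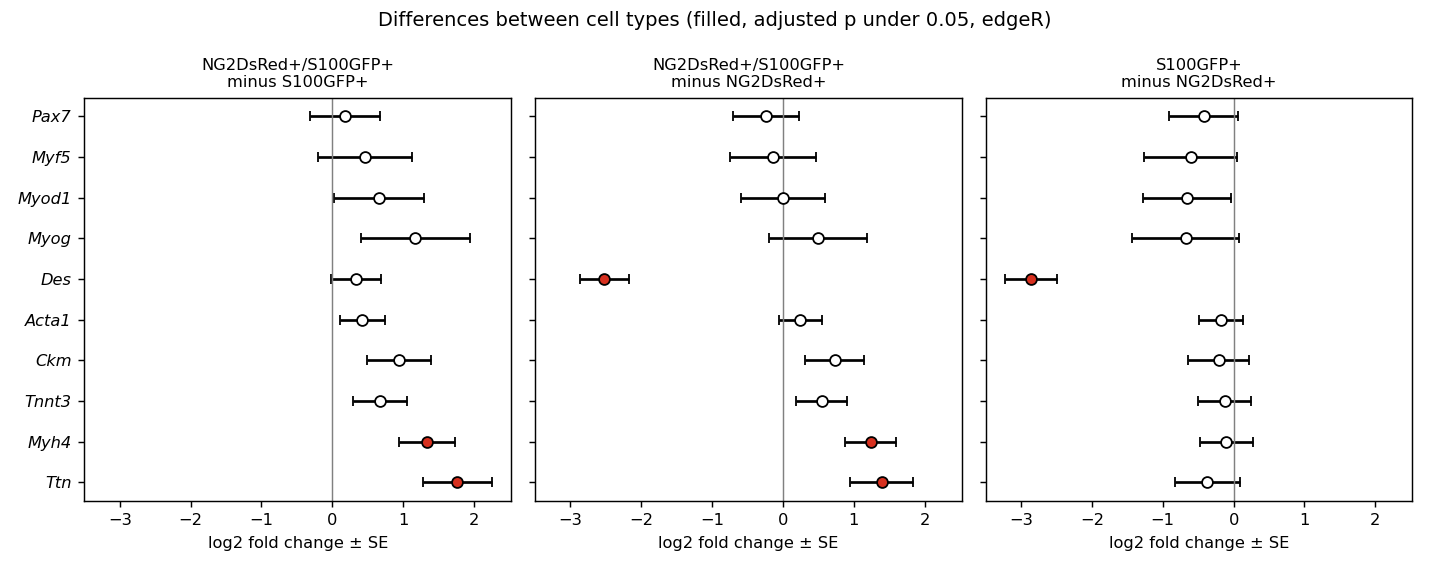
Log2 fold changes (horizontal axes) with their SE for the 10 genes in the 3 comparisons of cell types, with filled points for an adjusted p under 0.05 by edgeR. Myh4 and Ttn lie between 1.24 and 1.77 in both PSC comparisons, and Des lies at -2.52 and -2.86 against NG2DsRed+ cells.

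The ratios of Ttn and of Myh4 to Acta1 had higher medians in PSCs than in the other cells, with overlapping ranges. The ratio of Ttn to Acta1 in CPM was 0.396 to 1.60 in PSC libraries (median 0.748), 0.108 to 0.505 in S100GFP+ libraries (median 0.236) and 0.147 to 0.747 in NG2DsRed+ libraries (median 0.374). The ratio of Myh4 to Acta1 was 0.149 to 0.541 in PSCs (median 0.253), 0.0885 to 0.217 in S100GFP+ cells (median 0.154) and 0.0664 to 0.260 in NG2DsRed+ cells (median 0.165). The ratio of Ckm to Acta1 was closer across the cell types, with medians of 0.290, 0.260 and 0.271, though it reached 0.652 in PSC library 18. For Tnnt3 to Acta1 the medians were 0.371, 0.260 and 0.321. PSC libraries 4, 12, 20 and 34, with Ttn to Acta1 ratios of 1.04 to 1.60, had 6.95% to 17.8% of counts on Lars2, Gm23935 and Gm15564. PSC libraries 6, 18, 23 and 31, at 27.7% to 36.6%, had ratios of 0.396 to 0.748, while library 36, at 3.64%, had 0.420. The part of this share in the ratios was not tested. These ratios were chosen after the values were seen and were not tested.

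Compared per kilobase of exon, Acta1 stood highest of the 10 genes in each cell type, at 132 CPM per kb in PSCs, 98.1 in S100GFP+ cells and 111 in NG2DsRed+ cells, with Tnnt3 next at 46.8, 29.3 and 32.0. Ckm followed in PSCs (26.5) and S100GFP+ cells (13.7), while in NG2DsRed+ cells Des (27.0) stood above Ckm (15.9). Myh4 had 9.77, 3.86 and 4.14 CPM per kb. Ttn, whose exons over all isoforms span 116825 bases in GENCODE M21, had 1.38, 0.406 and 0.526 CPM per kb. Myod1 had 1.28, 0.820 and 1.27 CPM per kb, and Pax7 had 0.746, 0.665 and 0.880. Whether reads cover a gene of this length evenly was not examined, so the place of Ttn among the genes per length is uncertain. Reads from the strand opposite to Des (Gm15179), Ckm (A930016O22Rik) and Ttn (Gm13938) overlap 220, 451 and 453 of their exon bases and cannot be told apart where counting ignored strand, which the sources used here do not give.

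**Figure D3:**
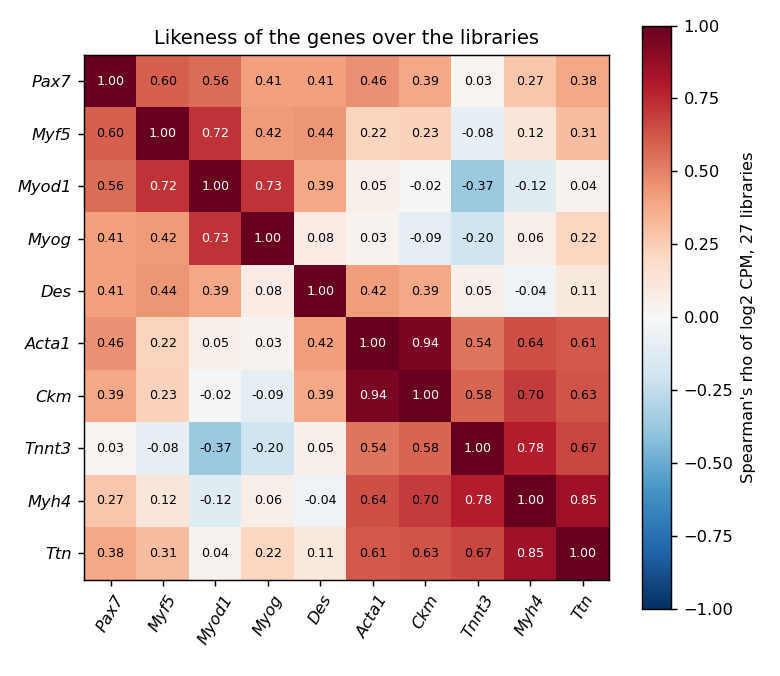
Spearman's rho of log2 CPM for each pair of the 10 genes over the 27 libraries, as color and number. Acta1 and Ckm (0.94) and Myh4 and Ttn (0.85) are the most alike pairs. Des and the satellite cell genes have values with the fibre genes from -0.37 (Myod1 and Tnnt3) to 0.46 (Pax7 and Acta1).

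Acta1 and Ckm were the pair with the most alike levels over the 27 libraries (rho 0.94), followed by Myh4 and Ttn (0.85), and Tnnt3 and Myh4 (0.78). Among the satellite cell genes, rho was 0.73 for Myod1 and Myog, 0.72 for Myf5 and Myod1, and 0.60 for Pax7 and Myf5. The 5 genes most like Acta1 were all of the fibre, namely Ckm, Mybpc2 (0.91), Myl1 (0.86), Eno3 (0.85) and Casq1 (0.83). Of the 5 most like Myod1 only Myog is specific to the lineage, beside Ppm1d (0.76), Vwa8 (0.76), Atg16l1 (0.74) and Ralgapb (0.74). Those most like Pax7 were Fastkd1 (0.72), Fam160a1 (0.72), Fgfr4 (0.70), a receptor of satellite cells, Pex26 (0.68) and Taf6 (0.68). These values describe points that share their library totals and cell types.

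In PSCs the fibre genes and the satellite cell genes went opposite ways from library to library. The summed level of Acta1, Ckm, Tnnt3, Myh4 and Ttn ran from 170 CPM in library 34 to 1540 CPM in library 18, and that of Pax7, Myf5, Myod1 and Myog from 25.0 CPM in library 6 to 4.88 CPM in library 18. On the log2(CPM + 0.5) scale Pearson's r was -0.89 (exact permutation p = 0.00154, n = 9) and Spearman's rho was -0.83 (exact permutation p = 0.00827). After Benjamini-Hochberg adjustment over the 9 relations computed, r passed (exact permutation test, adjusted p = 0.0138) and rho did not (exact permutation test, adjusted p = 0.0744). Without libraries 18 and 34, the farthest from the median, r was -0.85 (exact permutation p = 0.0321, n = 7). In NG2DsRed+ cells r was -0.08 (permutation p = 0.835, n = 10) and rho -0.14 (permutation p = 0.709). In S100GFP+ cells the sign was the opposite of that in PSCs, with r of 0.77 (exact permutation p = 0.0373, n = 8) and rho of 0.69 (exact permutation p = 0.0694), and neither passed after adjustment (exact permutation test, adjusted p = 0.157 and 0.312). Without libraries 1 and 17, the farthest from the median, r was 0.60 (exact permutation p = 0.197, n = 6). These 8 libraries fall into the sets of 3 and 5 described above, each too small for a value of its own. The difference between the cell types was not tested. In PSCs the combined share of Lars2, Gm23935 and Gm15564 had r of -0.06 with the fibre sum (exact permutation p = 0.889, n = 9) and 0.00 with the satellite cell sum (exact permutation p = 0.984).

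**Figure D4:**
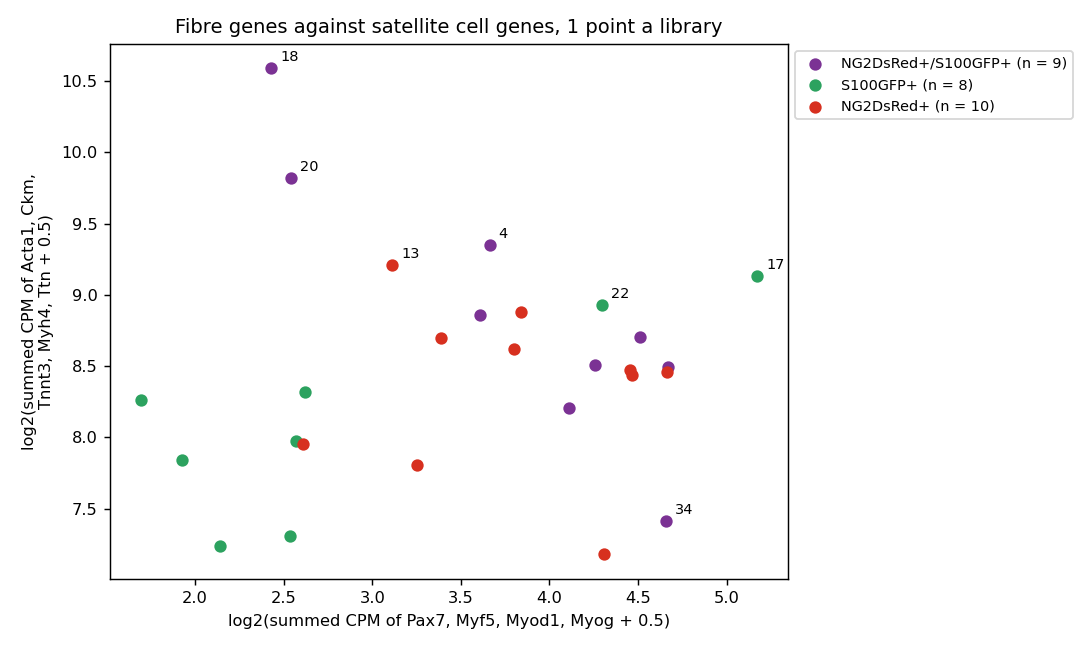
Summed CPM of the 5 fibre genes (vertical axis) against that of the 4 satellite cell genes (horizontal axis), both as log2(CPM + 0.5), with 1 point a library colored by cell type and some library numbers. PSC points run from library 18 (1540 CPM of fibre genes, 4.88 of satellite cell genes) to library 34 (170 and 24.8), while S100GFP+ libraries 17 and 22 stand high on both axes.

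The other genes of the lineage were examined by lists. Of the 9 genes of the satellite cell list 8 were tested, and Megf10, an engulfment receptor of satellite cells that astrocytes also use, was the only one called. It had 114 ± 32.3 CPM in PSCs (n = 9), 4.08 ± 3.34 in S100GFP+ cells (n = 8) and 4.87 ± 1.76 in NG2DsRed+ cells (n = 10), with log2 fold changes of 4.83 (edgeR adjusted p = 1.39e-11) and 4.54 (adjusted p = 5.09e-12). Cdh15, the cadherin of satellite cells, had 4.29 ± 1.62, 2.19 ± 2.74 and 4.42 ± 2.80 CPM and was not called. Pax3, the paralogue of Pax7, was under the filter, with 49 counts in all libraries together. The list's median log2 fold change was 0.78, -0.02 and -0.51 in the 3 comparisons, in which 47.0%, 44.0% and 33.3% of all genes tested were called. Without S100GFP+ libraries 14, 17 and 22, 6 of the 8 were higher in PSCs than in S100GFP+ cells, beside 3621 of all 16216 genes tested in that fit.

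Satellite cell genes that other cell types are also known to use were called in 5 of 8 cases between PSCs and S100GFP+ cells, in 6 of 8 between PSCs and NG2DsRed+ cells and in 7 of 8 between the single labeled cells, beside 47.0%, 44.0% and 33.3% of all genes tested. These shares were not compared by a test. Sdc4, a syndecan, was higher in PSCs (217 ± 26.5 CPM, n = 9) than in S100GFP+ cells (69.8 ± 15.2, n = 8) and NG2DsRed+ cells (41.3 ± 11.6, n = 10). Cd34, also a marker of endothelium and fibroblasts, had 38.8 ± 23.1, 604 ± 156 and 285 ± 48.2 CPM. Spry1, an inhibitor of FGF signaling, had 41.4 ± 20.2, 36.9 ± 23.3 and 186 ± 22.1 CPM, and the receptor Cxcr4 had 4.27 ± 2.35, 38.3 ± 13.4 and 24.4 ± 10.9 CPM.

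Of the 11 genes of myoblast fusion and developing fibres only 5 passed the filter. Of these 1, 0 and 1 were called in the 3 comparisons, beside 47.0%, 44.0% and 33.3% of all genes tested. Mef2c, a transcription factor that vessel cells use as well, was called higher in PSCs (213 ± 92.4 CPM, n = 9) and NG2DsRed+ cells (280 ± 49.1, n = 10) than in S100GFP+ cells (78.3 ± 18.5, n = 8). Mymk, the fusion protein myomaker, had 2.66 ± 2.61 CPM in PSCs and 1.13 ± 1.44 in S100GFP+ cells, and Actc1, cardiac actin of developing muscle, had 21.0 ± 9.35 and 12.8 ± 5.95 CPM, with neither called. The myogenic factor Myf6 and the embryonic and neonatal myosins Myh3 and Myh8 had 131, 45 and 150 counts in all and were not tested.

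Among 12 tested genes of the thick filament and titin, 3 were higher in PSCs than in S100GFP+ cells (Myh4, Ttn and Mybpc1, the slow myosin binding protein C) and 2 than in NG2DsRed+ cells (Myh4 and Ttn). Over all genes tested, 22.9% and 20.9% were higher in PSCs in these comparisons, and the shares were not compared by a test. The other fast myosins were not called, with Myh1 at 10.3 ± 8.84 CPM in PSCs, 4.41 ± 2.80 in S100GFP+ cells and 6.96 ± 8.93 in NG2DsRed+ cells, and Myh2 at 2.27 ± 2.84, 3.08 ± 1.57 and 2.13 ± 1.31 CPM. The fast light chains Mylpf (63.2 ± 39.5, 38.1 ± 13.6 and 45.4 ± 16.6 CPM) and Myl1 (39.3 ± 32.2, 35.5 ± 20.9 and 41.6 ± 22.0 CPM) were not called either, nor was Mybpc2 (10.7 ± 8.79, 6.57 ± 3.54 and 6.93 ± 2.98 CPM). Myom1, myomesin, was lower in PSCs (log2 fold change -2.73, edgeR adjusted p = 2.54e-07) and in S100GFP+ cells (-2.71, adjusted p = 1.09e-06) than in NG2DsRed+ cells, as Des was.

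Of 11 tested thin filament genes only Neb, nebulin, was higher in PSCs, at 36.4 ± 19.8 CPM (n = 9) against 16.1 ± 11.9 in S100GFP+ cells (n = 8, log2 fold change 1.18, edgeR adjusted p = 0.00786) and 17.5 ± 6.67 in NG2DsRed+ cells (n = 10, 1.06, adjusted p = 0.0103). Of all genes tested, 22.9% and 20.9% were higher in PSCs in these comparisons. The fast troponins Tnni2 (35.9 ± 17.0, 29.2 ± 12.1 and 30.6 ± 15.2 CPM) and Tnnc2 (11.6 ± 8.41, 7.91 ± 4.10 and 9.73 ± 5.08 CPM) did not pass, while slow Tnnt1 was lower in S100GFP+ than in NG2DsRed+ cells (log2 fold change -1.23, adjusted p = 0.0327). Of 10 tested Z disc genes edgeR called 0 between PSCs and S100GFP+ cells, with 1 at an unadjusted p under 0.05 and 1 called by DESeq2. In PSCs 4 were lower than in NG2DsRed+ cells, namely Des, Ldb3, Synpo2l and Xirp1. Over all genes tested 47.0% were called between PSCs and S100GFP+ cells, and 23.1% were lower in PSCs than in NG2DsRed+ cells. Tcap (10.4 ± 13.4, 4.23 ± 3.71 and 6.86 ± 3.56 CPM), Actn3 (24.6 ± 25.3, 15.0 ± 8.31 and 14.0 ± 5.32 CPM) and Myoz1 (7.24 ± 6.55, 5.67 ± 2.32 and 5.56 ± 2.17 CPM), which are used in fibres, were not called. Without S100GFP+ libraries 14, 17 and 22, 7 of 11 tested Z disc genes were higher in PSCs than in S100GFP+ cells, beside 3621 of all 16216 genes tested in that fit.

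Of 13 tested genes of excitation-contraction coupling, 3 were higher and 1 lower in PSCs than in S100GFP+ cells, and 2 were higher and 4 lower than in NG2DsRed+ cells. Of all genes tested, 22.9% were higher and 24.1% lower in PSCs than in S100GFP+ cells. Against NG2DsRed+ cells 20.9% were higher and 23.1% lower. The calcium pump Atp2a1 had 25.1 ± 22.2, 21.6 ± 17.4 and 27.0 ± 15.2 CPM and was not called. Pvalb, the calcium buffer of fast fibres, had 44.7 ± 20.5 CPM in PSCs and 27.5 ± 10.9 in NG2DsRed+ cells (log2 fold change 0.70, edgeR adjusted p = 0.0482). Jph2, a junctophilin that smooth muscle also has, and Hrc were lower in PSCs than in NG2DsRed+ cells by -4.18 and -2.41 on the log2 scale. Of 12 tested genes of fibre energy use, 3 were higher in PSCs than in S100GFP+ cells (Cox6a2, Pfkm and Phka1) and 2 than in NG2DsRed+ cells (Cox6a2 and Phka1), beside the same 22.9% and 20.9% of all genes. The muscle forms Cox7a1 (40.1 ± 43.1, 13.7 ± 13.0 and 24.3 ± 23.3 CPM), Cox8b (32.4 ± 29.9, 12.0 ± 12.4 and 13.6 ± 12.4 CPM) and Pgam2 (15.2 ± 12.9, 9.12 ± 3.16 and 13.3 ± 4.08 CPM) varied widely between libraries and were not called, nor was Ckmt2, the mitochondrial creatine kinase (2.77 ± 1.18, 2.29 ± 1.90 and 4.25 ± 2.30 CPM). Pygm was listed at 0 counts in every library.

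The fibre side of the neuromuscular junction, the nerve contact that PSCs cover, had 5 of 7 tested genes called higher in PSCs than in S100GFP+ cells, where 22.9% of all genes tested were higher. Against NG2DsRed+ cells 2 were higher and 1 lower in PSCs, where 20.9% and 23.1% of all genes were. In S100GFP+ cells 3 were lower than in NG2DsRed+ cells (Chrnb1, Ache and Ufsp1), beside 15.2% of all genes. The list's median log2 fold change was 1.48, -0.36 and -0.78 in the 3 comparisons. The differences between the shares were not tested. Musk, the receptor kinase that organizes the postsynapse, had 6.89 ± 3.07 CPM in PSCs (n = 9), 2.83 ± 1.71 in S100GFP+ cells (n = 8) and 1.82 ± 0.937 in NG2DsRed+ cells (n = 10). Its adaptor Dok7 had 3.92 ± 1.46, 0.976 ± 0.940 and 1.61 ± 0.669 CPM. Both were higher in PSCs than in each of the other cell types, with log2 fold changes of 1.29 and 1.91 for Musk (edgeR adjusted p = 0.0118 and 0.000214) and 2.01 and 1.27 for Dok7 (adjusted p = 0.000543 and 0.0106). Chrna1, Ache and Ufsp1 were higher in PSCs than in S100GFP+ cells, while Chrnb1 was lower in PSCs (4.84 ± 1.19 CPM) than in NG2DsRed+ cells (16.6 ± 4.61 CPM). Rapsn was listed at 0 counts in every library. Of 74 calls in these lists, the 10 genes included, 11 were lost when some single library was left out. They were Mybpc1, Chrna1, Hrc and Jph1 in PSCs against S100GFP+ cells, Pvalb, Ryr1 and Cox6a2 in PSCs against NG2DsRed+ cells, and Mypn, Pfkm, Cav3 and Tnnt1 between the single labeled cells. Of the 74 calls, 11 were also lost under at least 1 of the 9 other alternatives. They were Mybpc1, Chrna1, Hrc, Jph1, Jph2, Vcam1 and Cox6a2 in PSCs against S100GFP+ cells, Pvalb and Cox6a2 in PSCs against NG2DsRed+ cells, and Vcam1 and Tnnt1 between the single labeled cells. The Vcam1 calls were lost without S100GFP+ libraries 14, 17 and 22. Among the fits without 1 library, Ryr1, the calcium release channel, was lost only without PSC library 18, and Cox6a2 against NG2DsRed+ cells only without PSC library 36.

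**Figure D5:**
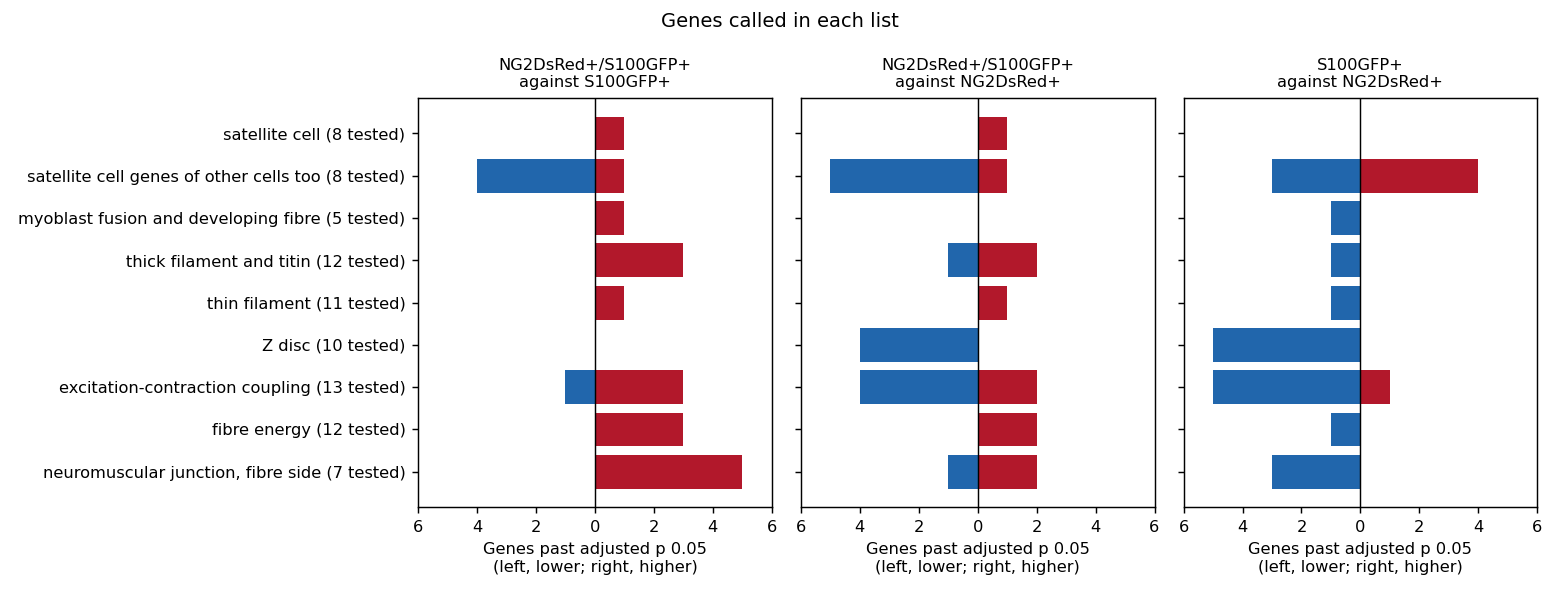
Number of genes past an adjusted p of 0.05 in each of 9 gene lists (horizontal axes, lower to the left and higher to the right of 0) in the 3 comparisons of cell types, with the number tested beside each list. The junction list has 5 of 7 genes higher in PSCs than in S100GFP+ cells, and the Z disc list has 4 of 10 lower in PSCs and 5 of 10 lower in S100GFP+ cells than in NG2DsRed+ cells.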

How the data were processed

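RNA of sorted cells was isolated with the PicoPure kit and amplified with SMART-Seq v4. The authors trimmed reads with ea-utils and Btrim, and the submitters' processing notes name HISAT2, HTSeq and GRCm38. The deposited table holds raw counts per gene. Tool versions and strand use: not given in the sources used here. The 27 library columns were mapped to samples by library number.

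Symbols and positions came from GENCODE M21 (GRCm38; 52403 of 52636 identifiers matched) and promoters from RefSeq. In R 4.3.3, edgeR 4.0.16 was run with TMM, filterByExpr (minimum count 10, 15330 genes kept) and 1 quasi-likelihood fit of all 27 libraries, with Benjamini-Hochberg adjustment over all genes tested at 0.05. The SE of a log2 fold change is its size over the square root of F. The fits were tested on simulated data with known changes. None of the 109 pairs of libraries of 1 cell type was identical, and all differed by more than sampling noise (chi-square of at least 8.10 per degree of freedom). The labels do not say that libraries are separate animals, so that p-values measure the spread between these libraries. PCR copies cannot be told from molecules, so floors (3 counts) cover counting error only.

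Permutation tests (scipy 1.17.1) were two-sided, exact with fewer than 10 libraries and otherwise with 100000 resamples. The genes and lists were chosen with earlier results of these data known. Named were the 10 genes, up to 4 tested genes per list with the highest level per length, their paralogues, the 5 genes most like Pax7, Myod1, Des and Acta1, sort and cell type markers and overlapping genes. Other genes are named because they passed the threshold, after their values were seen. The alternatives were DESeq2 1.42.0, its size factors, limma-voom (limma 3.58.1) with sample quality weights, no filter, a mean of at least 5 counts, only the cell types compared, Lars2, Gm23935 and Gm15564 as a covariate or left out, and fits without S100GFP+ libraries 14, 17 and 22 or without each library.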

Additional observations from a re-analysis of the deposited data

Results flagged for a closer look

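A library was set against the rest of its cell type by Dixon's test for each of the 10 genes in the 3 cell types, 30 groups in all. Chance flags about 1 in 20 groups if levels are normally distributed. The test was run on CPM without a log, and whether these levels are normally distributed was not checked. In 5 of them 1 library lay far above the others. PSC library 18 did so for Des (53.2 CPM, next 20.9), Acta1 (517 CPM, next 231) and Ckm (337 CPM, next 78.7), S100GFP+ library 17 for Myog (13.2 CPM, next 5.73) and NG2DsRed+ library 13 for Ttn (160 CPM, next 75.3). In PSC library 18, Myf5, Myod1 and Myog had 0 counts, the pericyte and smooth muscle list summed to 1953 CPM and the leukocyte list to 566 CPM, the highest of the PSC libraries, and the tendon list to 5.23 CPM, the lowest. In S100GFP+ library 17 the erythroid list summed to 130706 CPM and the endothelial list to 2644 CPM, the highest of all libraries for the first list and the highest of its cell type for the second. The part of these cells in the levels was not tested.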

How the results depend on the processing

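Des against NG2DsRed+ cells, and Myh4 and Ttn in both PSC comparisons, kept their direction and passed under all 9 alternative fits and the 27 fits without 1 library. PSC libraries 4, 18 and 20, the highest for Myh4 and Ttn, were not left out together in any fit. The log2 fold change of Ttn was 1.55 to 2.77 against S100GFP+ and 1.21 to 1.68 against NG2DsRed+ cells, that of Myh4 1.11 to 1.63 and 0.99 to 1.45. The number called between PSCs and S100GFP+ cells was 2, but 3 with no filter on low counts (Ckm, Myh4, Ttn), 4 with limma-voom (Myf5, Myog, Myh4, Ttn), 4 with the share of Lars2, Gm23935 and Gm15564 as a term (Des, Ckm, Myh4, Ttn), 7 without S100GFP+ libraries 14, 17 and 22, and 2 to 3 without 1 library. Between S100GFP+ and NG2DsRed+ cells it was 1, but 4 with limma-voom (Myf5, Myod1, Myog, Des), 4 without libraries 14, 17 and 22 (Pax7, Myf5, Des, Ttn) and 1 to 1 without 1 library. Between PSCs and NG2DsRed+ cells it was 3, but 4 with the share of Lars2, Gm23935 and Gm15564 as a term (Ckm gained, log2 fold change 1.06, adjusted p = 0.0448), and 3 to 3 without 1 library. The cause was not tested.

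Signs turned only for values that did not pass. Against NG2DsRed+ cells limma-voom gave -0.55 for Myod1, -0.13 for Acta1 and -0.079 for Ckm in PSCs, the share term 0.024 for Pax7 and 0.34 for Myf5, and no filter -0.00481 for Myod1. Without 1 library, PSCs minus S100GFP+ cells ran from -0.029 to 0.544 for Des. PSCs minus NG2DsRed+ cells ran from -0.341 to 0.074 for Pax7, -0.371 to 0.089 for Myf5 and -0.284 to 0.247 for Myod1. S100GFP+ minus NG2DsRed+ cells ran from -0.260 to 0.0095 for Tnnt3 and -0.257 to 0.109 for Myh4. The relation of the fibre and satellite cell sums in NG2DsRed+ cells was 0.49 without the 2 farthest libraries, and that of the fibre sum and the share on Lars2, Gm23935 and Gm15564 was -0.32. Without a filter on low counts 44705 genes were tested, beside 15330 with it. Of them 16556 were called in PSCs against S100GFP+ cells and 10586 between the single labeled cells, beside 7199 and 5100 with the filter. Of the calls without a filter, 12649 and 2392 were lower. DESeq2 size factors moved no mean level by as much as its SD. No paired analysis was possible because each library has a number of its own. Satellite cell genes rest on 0 to 128 counts a library, and the SE of their log2 fold changes was 0.46 to 0.77.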
